A study of Mus musculus with 4 samples.

Results

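The genes described here are 10 mouse genes of iron storage and transport, Fth1, Ftl1, Tfrc, Trf, Slc40a1, Slc11a2, Cp, Heph, Steap3 and Ireb2. They were taken by name from an expression table of 46072 genes, and all 10 were found there. The table holds 4 poly(A) RNA-seq libraries, here replicates 1 to 4, from brain vessels of wild-type mice without treatment. The cells are labelled as endothelial and were cut by laser from brains fixed by perfusion, guided by antibody labelling (immuno-laser capture microdissection, LCM). For strain, age, sex and the number of animals the labels name no value. The 4 libraries form 1 group, so genes were compared within libraries, and any p-value measures the spread between these libraries alone, which could be technical.

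Iron travels in blood bound to transferrin, which the transferrin receptor carries into cells. Inside the endosome a ferrireductase reduces the iron, a divalent metal transporter moves it to the cytosol, and ferritin stores what is not used. Ferroportin exports iron from cells, and a copper ferroxidase on the outside oxidises it so that transferrin can bind it again. Brain capillary endothelium takes up transferrin through its receptor, and oligodendrocytes and choroid plexus epithelium are known to make transferrin themselves.

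The libraries held a summed FPKM (fragments per kilobase of transcript, scaled to all mapped fragments) of 448678 to 482882, and their read depth is unknown. Endothelial markers were present: the median of 17 such genes was 4.29 ± 0.541 FPKM (SD, n = 4), and 15 of them averaged 1 FPKM or more. Marker lists of other cell types, all but pericytes, were higher. The list median was 130 ± 8.94 FPKM for neurons, 100.4 ± 7.39 for astrocytes, 85.6 ± 6.75 for oligodendrocytes, 29.6 ± 4.02 for microglia and 25.1 ± 5.39 for choroid plexus. It was 3.15 ± 0.373 FPKM for pericytes and 260.02 ± 57.2 for erythroid genes. No marker in these lists was at 0 in all 4 libraries. The cells that the iron gene RNA came from were therefore not identified, and in such bulk libraries fewer cells of a type and less RNA per cell cannot be told apart.

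Several iron mRNAs carry an iron-responsive element, a hairpin in an untranslated region (UTR) that iron regulatory proteins bind when iron is low. In the 5′ UTR of ferritin and ferroportin mRNAs the bound protein blocks translation, which RNA levels do not show. In the 3′ UTR of the receptor mRNA it protects the mRNA from decay. The annotated UTRs (GENCODE M21, GRCm38) were searched, on the transcript's own strand, for a bulged C, any 5 stem bases, and the loop CAGTG followed by any base. The bases on either side were then scored for pairing, G with T included, over the 5 pairs of the upper stem and the 5 of the lower stem. The hairpins are printed 5′ to 3′ because those with all 5 upper pairs lie before the coding sequence in some members and after it in another. The Slc11a2 match, with 4 upper pairs, is shown beside them. Matches with 3 or fewer upper pairs are not printed. The capitals mark the bulged C and the 6 loop bases.
Fth1 5′ UTR, chr19:9982733-9982759, plus strand: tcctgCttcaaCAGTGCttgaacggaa
Ftl1 5′ UTR, chr7:45459780-45459806, minus strand: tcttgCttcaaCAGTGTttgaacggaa
Slc40a1 5′ UTR, chr1:45925466-45925492, minus strand: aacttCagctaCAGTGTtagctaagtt
Tfrc 3′ UTR, chr16:32631220-32631246, plus strand: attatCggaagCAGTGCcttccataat
Tfrc 3′ UTR, chr16:32631599-32631625, plus strand: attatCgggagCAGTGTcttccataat
Tfrc 3′ UTR, chr16:32631664-32631690, plus strand: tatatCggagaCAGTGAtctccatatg
Tfrc 3′ UTR, chr16:32631711-32631737, plus strand: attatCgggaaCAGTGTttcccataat
Slc11a2 3′ UTR, chr15:100395154-100395180, minus strand: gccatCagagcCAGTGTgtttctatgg

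Fth1, Ftl1 and Slc40a1 were the members with all 5 upper pairs and at least 4 lower pairs in a 5′ UTR. Over all genes, 6 of 20915 with an annotated 5′ UTR had such a hairpin (0.0287%). Tfrc was the member with such a hairpin in a 3′ UTR, at 4 places, against 11 of 21024 genes overall (0.0523%). The 5′ hairpin was found in 4 of 5 protein-coding transcripts of Fth1, 1 of 2 of Ftl1 and 1 of 4 of Slc40a1. The 3′ hairpins of Tfrc were found in 1 of 3. The Slc11a2 match had 4 upper and 1 lower pair and lies in the annotated 3′ UTR of 1 Slc11a2 transcript, outside that of other transcripts with another last exon, and the table gives 1 value for the whole gene. The bare motif is common: it lies in the 5′ UTR of 11.97% and the 3′ UTR of 35.8% of genes. Heph, Ireb2 and Steap3 matched it with 3 or fewer upper pairs. So did the 3′ UTR of Fth1, with 3 upper and 3 lower pairs, and further places in the 3′ UTRs of Slc11a2 and Tfrc. Such a match describes the sequence and does not show binding.

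The ferritin genes were the highest of the members. Fth1 encodes the heavy subunit, whose ferroxidase site oxidises iron as it enters the ferritin shell (ENSMUSG00000024661, chromosome 19, 9980598 to 9985098). It measured 3893, 4529, 4411 and 4813 FPKM in replicates 1 to 4, 4412 ± 385 on average (SD, n = 4). Replicate 1 was lowest, and in every library Fth1 ranked among the 10 highest genes of the table, between 4 and 10. Ftl1 encodes the light subunit, which favours mineral formation inside the shell (ENSMUSG00000050708, chromosome 7, 45457944 to 45459884). It measured 553, 632, 599 and 659 FPKM, 611 ± 45.4 on average, with ranks of 65 to 72. The libraries fell in the same order for Ftl1 as for Fth1, and the ranges of the genes did not overlap. Together the ferritin subunits held 1.08% ± 0.0654 of summed FPKM.

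The heavy to light ratio was 7.04, 7.17, 7.36 and 7.31 in replicates 1 to 4, a mean of 7.22 ± 0.145 (SD, n = 4). This ratio was nearly flat, whereas each gene by itself varied by a factor of 1.24 (Fth1) and 1.19 (Ftl1) between its lowest and highest library. On the log2(FPKM + 1) scale Fth1 exceeded Ftl1 by 2.85 ± 0.03 in every library. Its exact 2-sided sign-flip p was 0.13 (2 of 16 sign patterns), and 4 libraries cannot give a smaller one. In a comparison chosen after these values were seen, the SD of the log2 FPKM ratio to Fth1 was 0.03 for Ftl1. It was 0.12 for the median of the 753 other genes that averaged 100 FPKM or more, and 12 of them (1.59%), Ftl1 included, were at or below the value of Ftl1.

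Ferritin genes have processed copies in the genome that could share reads with them. Annotated transcripts of other genes were counted as copies at 90% identity or more over 50% or more of their length and at least 200 bases. Ftl1 had 9 such copies, 7 of them in the table, with a summed level of 19.6 to 23.7 FPKM, or 3.65% of the Ftl1 value on average. The highest were Gm10116 (Ftl1-ps1 in GENCODE, 99.6% identity, with the same printed hairpin sequence as Ftl1) at 12.4 ± 1.10 FPKM and Ftl2 at 7.28 ± 0.624 FPKM (SD, n = 4). Gm15590 measured 2.30 ± 0.621 FPKM. Not all of the counted copies are processed ones: Gm10116 is annotated as protein-coding, and an antisense gene outside the expression table was counted too. How reads were divided between Ftl1 and these copies is uncertain. Fth1 had 1 copy by this measure, Gm6977, listed at 0 in all 4 libraries.

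**Figure D1:**
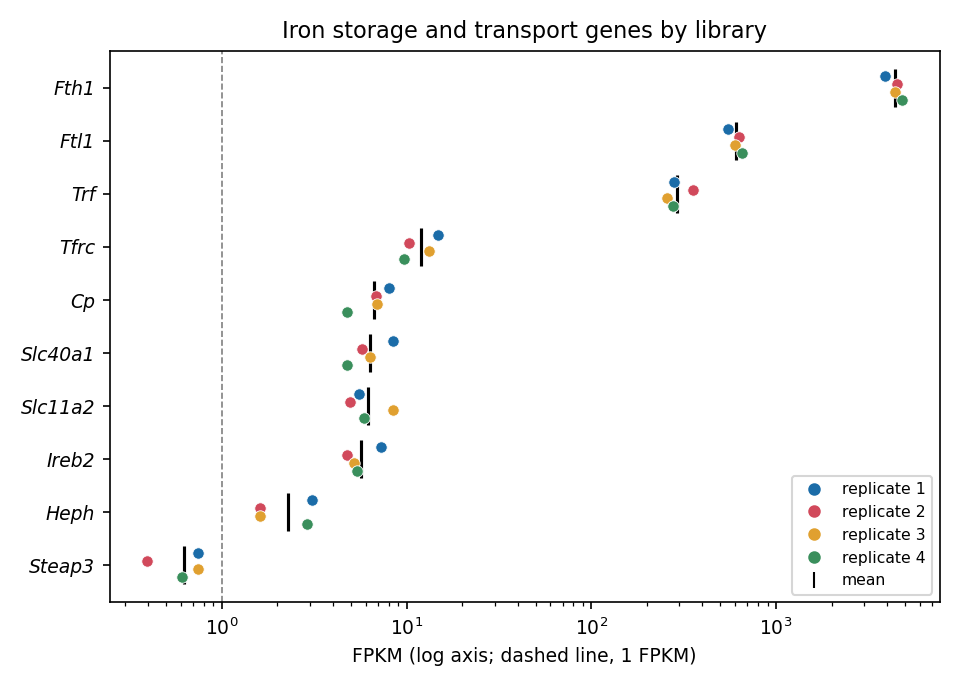
FPKM of the 10 iron genes on a log axis, 1 point per library (colours, replicates 1 to 4) with a bar at the mean of 4 libraries and a dashed line at 1 FPKM. Fth1, Ftl1 and Trf lie far above the other members, Cp, Slc40a1, Slc11a2 and Ireb2 overlap, and Steap3 is below 1 FPKM in every library.

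Trf encodes transferrin, the iron carrier of plasma and cerebrospinal fluid (ENSMUSG00000032554, chromosome 9, 103204001 to 103230444). It was the next member in level, at 281, 354, 258 and 278 FPKM in replicates 1 to 4, 293 ± 42.1 on average (SD, n = 4). Replicate 2 stood above the other 3, as it did for 49.1% of genes that averaged 100 FPKM or more, and the range lay wholly below that of Ftl1. Replicate 2 also had the highest summed level for 7 of 8 marker lists, all but choroid plexus. For the 10 oligodendrocyte markers it was 6243 FPKM against 4978, 5282 and 5753 in replicates 1, 3 and 4. Of these markers 7 were highest in replicate 2, as were 7 of 8 microglia, 6 of 7 neuron and 6 of 7 erythroid markers. Counts in the other lists were 5 of 17 endothelial, 2 of 8 astrocyte, 2 of 6 pericyte and 0 of 7 choroid plexus markers. Over all genes that averaged 1 FPKM or more, 29.2% were highest in replicate 2. Trf differed little between replicates 1 and 4, at 281 and 278 FPKM, so its library order rests on a small gap. The microglia and pericyte sums had that order, and the neuron and erythroid sums only exchanged replicates 1 and 4. The sums of the other lists, oligodendrocyte included, had other orders. Mbp and Mobp, myelin genes and the highest of the oligodendrocyte list, measured 3187 ± 376 and 999 ± 92.2 FPKM. The summed level of the 7 choroid plexus markers, led by the thyroxine carrier gene Ttr and the channel gene Kcnj13, was lowest in replicate 2, at 11697 FPKM against 14294 to 17193 elsewhere. The part of any of these lists in the Trf values was not tested. Gm20425, an annotated gene on the same strand that shares 2108 exonic bases with Trf, measured 1.36 ± 0.490 FPKM, and with it added Trf was 294 ± 42.5.

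Tfrc encodes the transferrin receptor (ENSMUSG00000022797, chromosome 16, 32608920 to 32632794). It measured 14.8, 10.3, 13.3 and 9.66 FPKM in replicates 1 to 4, 12.02 ± 2.42 on average (SD, n = 4). Replicates 1 and 3 were higher than 2 and 4. The FPKM of transferrin exceeded that of its receptor 19.0, 34.2, 19.4 and 28.8 times in these libraries. The difference was 4.50 ± 0.40 on the log2(FPKM + 1) scale (exact sign-flip p = 0.13). The libraries with the higher ratio were the ones with the lower Tfrc value, replicates 2 and 4. Tfrc is the divisor of this ratio, so a low Tfrc value raises it by construction.

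Ferroportin and the divalent metal transporter could not be put in order. Slc40a1 encodes ferroportin, the iron exporter (ENSMUSG00000025993, chromosome 1, 45908068 to 45926523). It measured 8.46, 5.77, 6.37 and 4.78 FPKM in replicates 1 to 4, 6.34 ± 1.55 on average (SD, n = 4). Slc11a2 encodes the transporter DMT1, which moves ferrous iron out of endosomes (ENSMUSG00000023030, chromosome 15, 100387898 to 100425072). It measured 5.56, 4.95, 8.46 and 5.88 FPKM, 6.21 ± 1.55 on average. Slc40a1 was highest in replicate 1 and Slc11a2 in replicate 3, and their ranges overlapped. Slc40a1 was the higher in 2 of 4 libraries. The mean log2 difference of 0.03 ± 0.41 was far smaller than its spread (exact sign-flip p = 1) and turned to -0.14 without replicate 1 and to -0.03 without replicate 2. Against the exporter, the FPKM of Fth1 was 460 to 1007 times as high, a difference of 9.25 ± 0.42 on the log2(FPKM + 1) scale (exact sign-flip p = 0.13).

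The ferroxidases differed in level. Cp encodes ceruloplasmin, secreted into plasma by liver and, as a membrane-anchored form, known from astrocytes (ENSMUSG00000003617, chromosome 3, 19957054 to 20009145). It measured 8.05, 6.85, 6.89 and 4.79 FPKM in replicates 1 to 4, 6.64 ± 1.36 on average (SD, n = 4), with replicate 4 lowest. The summed astrocyte list was also lowest in replicate 4, at 921 FPKM against 953 to 1104.5 elsewhere, with 4 of its 8 markers lowest there. Of its leading genes Gja1 was lowest in replicate 4 and Aldoc in replicate 3. Replicate 4 was also lowest for 7 of 17 endothelial, 3 of 6 pericyte, 2 of 10 oligodendrocyte and 2 of 7 erythroid markers. Counts in the other lists were 1 of 8 microglia, 1 of 7 neuron and 0 of 7 choroid plexus markers. Over all genes that averaged 1 FPKM or more, 23.8% were lowest in replicate 4. The endothelial median was lowest in replicate 4 too, at 3.51 FPKM against 4.38 to 4.76. The endothelial sum was instead lowest in replicate 1, at 233 FPKM against 260 in replicate 4. The part of any of these lists in the Cp values was not tested. Heph encodes hephaestin, the membrane-bound relative of ceruloplasmin (ENSMUSG00000031209, chromosome X, 96455359 to 96574485). It measured 3.06, 1.60, 1.62 and 2.88 FPKM, 2.29 ± 0.790 on average, with replicates 1 and 4 above replicates 2 and 3 and a highest to lowest ratio of 1.91. Cp exceeded Heph 2.63, 4.27, 4.25 and 1.66 times in replicates 1 to 4, a log2(FPKM + 1) difference of 1.23 ± 0.48 with the same sign each time (exact sign-flip p = 0.13). Hps3, on the opposite strand at 4.24 ± 1.14 FPKM, shares 108 exonic bases with Cp. The strand setting is not given, so reads in that stretch cannot be told apart.

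Steap3 and Ireb2 act inside the cell. Steap3 is the endosomal ferrireductase best known from red cell precursors (ENSMUSG00000026389, chromosome 1, 120190757 to 120272705). It was the lowest member, at 0.746, 0.396, 0.744 and 0.607 FPKM in replicates 1 to 4, 0.623 ± 0.165 on average (SD, n = 4). Its relative Steap2, another metalloreductase, was higher in 4 of 4 libraries at 4.73 ± 1.36 FPKM, a Steap3 minus Steap2 difference of -1.80 ± 0.23 on the log2(FPKM + 1) scale (exact sign-flip p = 0.13). Ireb2 encodes iron regulatory protein IRP2, which binds iron-responsive elements (ENSMUSG00000032293, chromosome 9, 54863789 to 54912530). It measured 7.28, 4.77, 5.20 and 5.40 FPKM, 5.66 ± 1.11 on average, with replicate 1 highest. Aco1, which encodes the other iron regulatory protein and a cytosolic aconitase, measured 7.46 ± 1.14 FPKM. Ireb2 was the higher in 1 of 4 libraries, and the difference of -0.35 ± 0.33 on the log2(FPKM + 1) scale was about the size of its spread (exact sign-flip p = 0.25). Adjusted over the 7 pairs compared, the p-values were 0.175 for the 5 pairs with the same sign in every library, 0.292 for Ireb2 with Aco1 and 1 for Slc40a1 with Slc11a2 (exact tests, Benjamini-Hochberg), so no pair could pass 0.05 in this design.

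**Figure D2:**
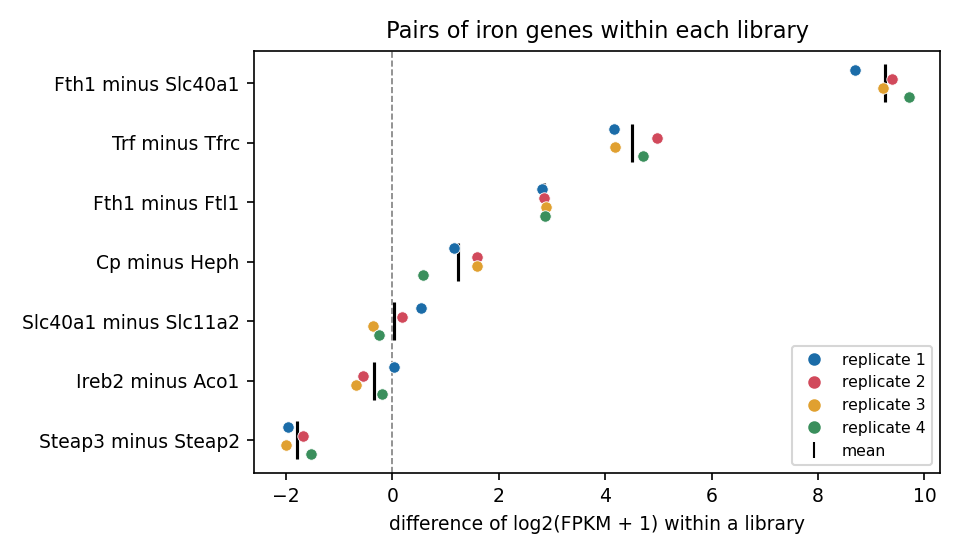
Difference of log2(FPKM + 1) between the genes of 7 pairs within each library (points, replicates 1 to 4; bar, mean). The Fth1 to Ftl1 points lie closest together, from 2.81 to 2.88, and the Slc40a1 to Slc11a2 points fall on both sides of 0.

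Ordered by mean FPKM, the members ran Fth1, Ftl1, Trf, Tfrc, Cp, Slc40a1, Slc11a2, Ireb2, Heph and Steap3. The ranges of neighbours in this order did not overlap, except that Cp, Slc40a1, Slc11a2 and Ireb2 overlapped each with the next. Their order among themselves therefore does not hold beyond the spread between libraries. The longest coding transcripts of Fth1, Ftl1 and Trf have 1494, 968 and 2571 bases, against 3370 to 5770 for the other members. An effect of transcript length on FPKM compared between genes was not tested. Fth1 by itself made up 82.4% ± 0.909 of the summed FPKM of the 10 genes. Against a level of 1 FPKM, 9 members lay higher and Steap3 lower (limma, adjusted over 25206 genes), where 47.7% of all genes tested were higher and 40.1% lower. The member median was 1.88 above 1 FPKM on the log2(FPKM + 1) scale, and the median over all genes was 0.27 above it. Members other than Heph and Steap3 had adjusted p-values of 6.49e-05 or less (limma). Heph lay 0.69 ± 0.17 (SE) above 1 FPKM (limma, adjusted p = 0.0123), a call lost without replicate 4 (adjusted p = 0.0516).

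Steap3 lay at -0.31 ± 0.09 (SE) from 1 FPKM on the log2(FPKM + 1) scale and below it in 4 of 4 libraries (limma, adjusted p = 0.021). This call depended on the settings. It was lost with a pseudocount of 0.1 (adjusted p = 0.079), without replicate 2 (adjusted p = 0.0769) and without replicate 4 (adjusted p = 0.0689). The line of 1 FPKM itself has a meaning only on the deposited scale. Rescaling each library to the same fixed sum multiplied every value by 2.07 to 2.23 and so moved all genes up against that line, with 9 members called higher and 0 lower, and 54.3% of all genes called higher and 29.7% lower.

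Set against the median of the general endothelial markers of the same library, ferritin, transferrin and the receptor were higher and Heph and Steap3 lower. The reference was the median of log2(FPKM + 1) over the 17 endothelial genes, whose highest members were Ly6c1, at 68.2 ± 4.29 FPKM, and Ly6a, at 49.5 ± 4.33 FPKM (SD, n = 4). Fth1 lay 9.71, Ftl1 6.86, Trf 5.79 and Tfrc 1.29 above it on that scale, and Heph lay at -0.71 and Steap3 at -1.70. For Tfrc, the receptor long used as a mark of brain capillaries, the difference was 1.45, 1.08, 1.38 and 1.24 in replicates 1 to 4. Cp, Slc40a1, Slc11a2 and Ireb2 lay 0.52, 0.46, 0.43 and 0.33 above the reference, also in 4 of 4 libraries. The 17 endothelial genes themselves ran from -1.95 to 3.71 about their median. Of the members only Fth1, Ftl1 and Trf lay outside that range, and Tfrc lay inside it.

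By limma's test 8 members were higher and 2 lower, with adjusted p-values of 0.0368 or less, where 31.5% of all genes tested were higher and 60.3% lower. Of the 17 endothelial genes themselves 8 were called higher, 8 lower and 1 neither. limma estimated 1 spread common to all genes of a level here and treated it as known, so its p-values should not be read at face value. With each gene's own spread, an alternative chosen after seeing the data, Tfrc (adjusted p = 0.00122), Heph (adjusted p = 0.0493) and Steap3 (adjusted p = 0.000896) still passed, as did Fth1, Ftl1, Trf, Cp and Slc40a1. Slc11a2 (adjusted p = 0.0799) and Ireb2 (adjusted p = 0.066) did not. By limma's test Slc11a2 also lost its call without replicate 3 (adjusted p = 0.101) and without replicate 4 (adjusted p = 0.0501), and Ireb2 without replicate 1 (adjusted p = 0.17) and without replicate 4 (adjusted p = 0.132). With each gene's own spread 29.6% of all genes were higher and 57.9% lower. With the endothelial mean as reference in place of the median, every gene moved by -0.53. Then 4 members were higher, Fth1, Ftl1, Trf and Tfrc, and 2 lower, where 25.7% of all genes were higher and 67.5% lower. The values of the other 4 were -0.01 for Cp, -0.07 for Slc40a1, -0.10 for Slc11a2 and -0.21 for Ireb2. With endothelial genes under 1 FPKM left out of the reference, every gene moved by -0.35, the same 4 members were higher and 2 lower, and 27.2% of all genes were higher and 65% lower.

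**Figure D3:**
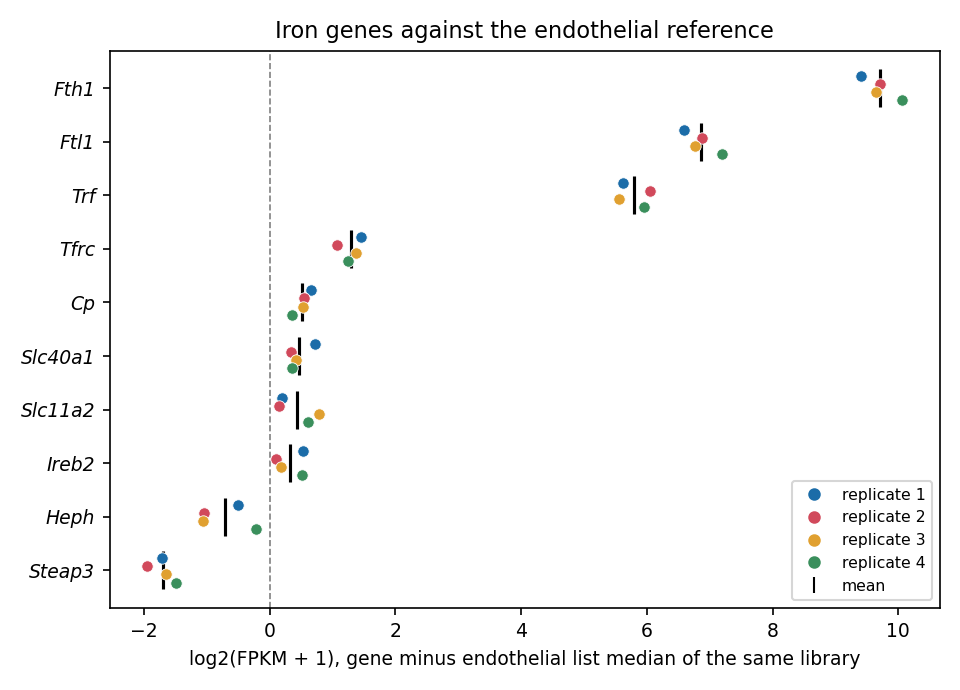
Difference of log2(FPKM + 1) between each iron gene and the median of the 17 endothelial markers in the same library (points, replicates 1 to 4; bar, mean; dashed line, no difference). The points of Tfrc lie between 1.08 and 1.45, those of Cp, Slc40a1, Slc11a2 and Ireb2 just above 0, and those of Heph and Steap3 below 0.

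The members did not vary together across the libraries. Fth1 and Ftl1 were lowest in replicate 1, as were 49.9% of the 754 genes that averaged 100 FPKM or more, and highest in replicate 4, as were 38.6%. Of the 7 members under 100 FPKM, 6 were highest in replicate 1, all but Slc11a2, against 25.6% of all genes that averaged 1 FPKM or more. Of the 5 members between 1 and 10 FPKM 4 were highest there, against 30.5% of the 7900 genes in that range. Replicate 2 was lowest for 3 of these 5, against 35.4% of the genes in that range. The coefficient of variation was 8.73% for Fth1, 7.44% for Ftl1 and 14.4% for Trf, where the median was 9.81% over genes of 100 to 1000 FPKM and 14.6% over the 38 genes above. It was 20.1% for Tfrc, above the 75th percentile of 16.3% for genes of 10 to 100 FPKM, and 19.6% to 34.4% for the members between 1 and 10 FPKM, where the median was 23.6%.

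**Figure D4:**
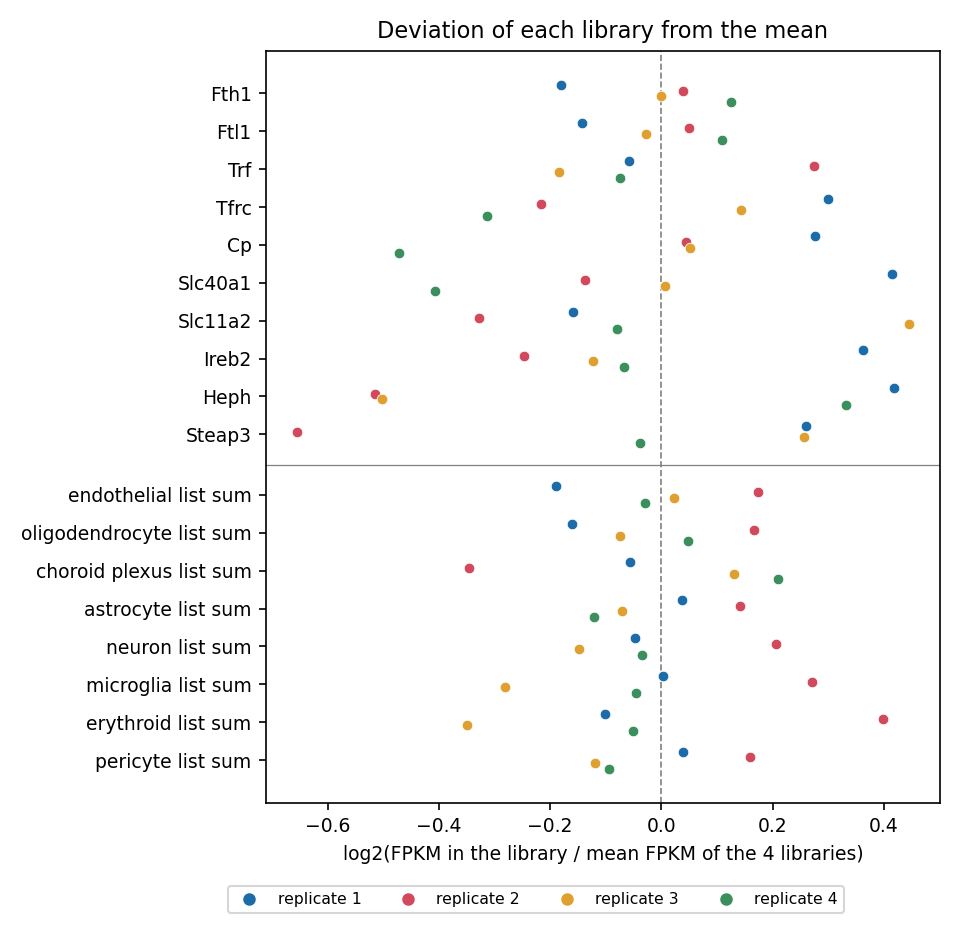
Log2 of each library's FPKM over the mean of the 4 libraries, for the 10 iron genes (top) and for the summed FPKM of 8 cell type marker lists (bottom), with 1 point per library. Replicate 1 is lowest for Fth1 and Ftl1 and highest for 6 of the lower members, and replicate 2 is highest for Trf and for every marker list but choroid plexus.

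Among 34 other genes of iron handling, 24 lay above 1 FPKM, 5 below it, 3 passed in neither direction and 2 were listed at 0 in all 4 libraries (limma, adjusted over all genes). Of all genes tested, 47.7% lay above and 40.1% below. Among the genes tested in each group, 4 of 7 uptake, 5 of 7 regulator and 3 of 4 ferritin loading genes lay above. So did 6 of 8 heme and 6 of 6 mitochondrial iron genes. The share of the uptake group, 57.1%, was nearest to the background. The median over the 32 genes tested was 1.52 above 1 FPKM on the log2(FPKM + 1) scale. All 6 genes of mitochondrial iron use lay above 1 FPKM, led by Iscu, the scaffold of iron-sulfur cluster assembly, at 175 ± 20.9 FPKM (SD, n = 4), and Nfs1, the cysteine desulfurase, at 27.2 ± 3.17. The lowest of them was the mitochondrial iron importer Slc25a37 at 2.09 ± 0.787 FPKM, a call lost without replicate 1 (adjusted p = 0.0754), without replicate 3 (adjusted p = 0.0774) and with its own spread (adjusted p = 0.0573), by which 46.7% of all genes were called higher and 37.2% lower. Of 5 genes of ferritin loading and turnover 3 lay above and 1 passed in neither direction. Pcbp1 and Pcbp2, iron chaperones that deliver to ferritin, measured 61.4 ± 3.29 and 24.5 ± 6.16 FPKM, and the mitochondrial ferritin Ftmt was listed at 0.

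Of the 8 regulators 5 lay above and 2 below 1 FPKM. Fbxl5, the ubiquitin ligase adaptor that removes IRP2, was the highest at 48.1 ± 9.14 FPKM (SD, n = 4), and Hfe, a partner of the transferrin receptor, measured 8.70 ± 1.54. Hamp, which encodes the hormone hepcidin, was listed at 0 in all 4 libraries. Of 7 uptake and reduction genes 4 lay above and 2 below, with the lysosomal channel Mcoln1 at 29.4 ± 4.64 FPKM and the ferrireductase Cybrd1 at 0.371 ± 0.196. Of 8 heme genes 6 lay above and 1 below. The heme transporter Slc48a1 measured 72.9 ± 7.52 FPKM and the heme oxygenase Hmox2 43.1 ± 3.30. Hpx, the heme scavenger hemopexin, measured 0, 0.0997, 0 and 0.476 FPKM in replicates 1 to 4.

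**Figure D5:**
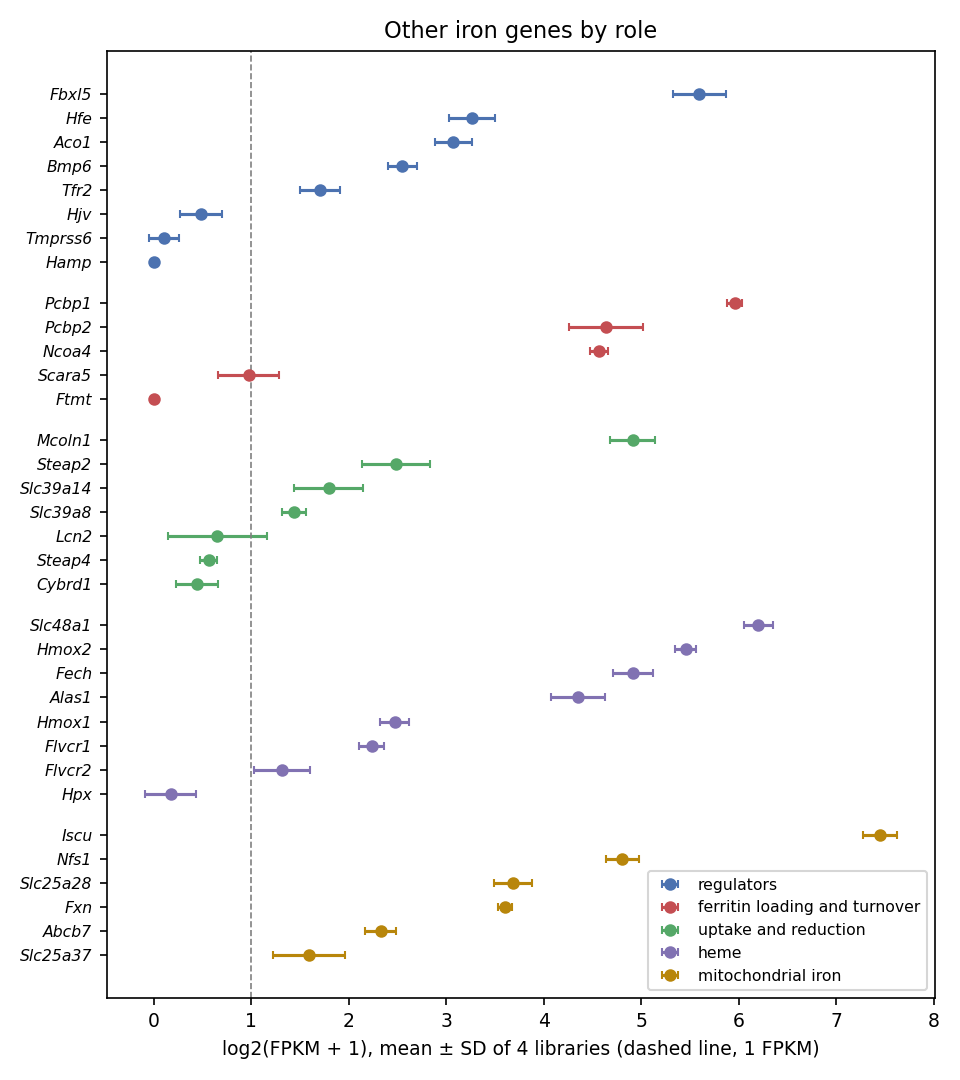
Mean ± SD of log2(FPKM + 1) over 4 libraries for the 34 other iron genes, grouped by role (colours), with a dashed line at 1 FPKM. Every mitochondrial iron gene lies above the line, and Hamp and Ftmt lie at 0.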

How the data were processed

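The authors deposited 1 table of FPKM per gene for 4 libraries, with 0 columns left unmapped. Build GRCm38 and the tools StringTie 2.2.1, HISAT2 2.2.1, bcl2fastq 2.20 and SAMtools are listed, in no order, per the submitters' processing notes. How multiply matching reads were counted, the strand setting and the annotation release are not given in the sources. FPKM falls for every gene when a few genes take more of the total. Low values showed no whole-read steps (at most 5 genes shared 1 ratio between a pair of libraries), so depth is unknown.

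Values were tested as log2(FPKM + 1), with a pseudocount of 1, which understates differences of low genes. limma 3.58.1 in R 4.3.3, with a mean-variance trend, was fitted to all 25206 genes above 0 in any library, against 1 FPKM and against the endothelial median of the same library, 2-sided, with Benjamini-Hochberg adjustment at 0.05. A check on simulated data used the fit without the mean-variance trend, so the fit with the trend was not itself tested. The 7 pairs had an exact sign-flip test (16 patterns). Positions and UTRs came from GENCODE M21, and copies from BLAST+ 2.17.0. Of the listed genes 3 were matched by another name or gene ID. Members and lists were chosen with earlier results of these data known. Named genes are all members, the 2 highest and the lowest of each iron role group, genes of the pairs, the 2 highest of each marker list (not all are reported here), and copies with a mean of at least 1 FPKM. Figures were drawn with matplotlib 3.10.9.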

Additional observations from a re-analysis of the deposited data

How the results depend on the processing

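The number of members above 1 FPKM was 9, and 8 to 9 with a library left out. The number below was 1, and 0 with a pseudocount of 0.1, and 0 to 1 with a library left out. Rescaling to a fixed sum multiplied all values by 2.07 to 2.23 against an unmoved line: by that construction the number below became 0, Steap3 went from -0.31 to 0.21, other iron genes below 1 FPKM went from 5 to 2, and lower calls among all genes from 10104 to 7474. Against the endothelial reference, 8 members were higher, 4 with the endothelial mean as reference, 4 with its members under 1 FPKM left out and 6 to 8 with a library left out. With the mean as reference Cp lay at -0.012, Slc40a1 at -0.074, Slc11a2 at -0.10 and Ireb2 at -0.21, and with low reference members left out Ireb2 lay at -0.027. These references moved every gene alike, by -0.53 and -0.35, so the members nearest 0 crossed it by construction. The Slc40a1 to Slc11a2 difference ran from -0.14 to 0.15 with a library left out. The other 6 pairs kept their sign under the alternatives run. Adding sequence copies moved Ftl1 from 611 to 633 FPKM, and adding the overlapping gene Gm20425 moved Trf from 293 to 294, each by less than 1 SD. No paired analysis was possible because the series has 1 group.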

Other observations

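Outside the members, 3 annotated genes had a 5′ UTR hairpin with 5 upper and at least 4 lower pairs, and are named after the search was seen. Alas2, the red cell enzyme of heme synthesis whose mRNA is known to carry an iron-responsive element, measured 4.93 ± 1.61 FPKM (SD, n = 4), with replicate 2 highest at 7.28. Gm10116, the Ftl1 copy, measured 12.4 ± 1.10 FPKM. The match in Ppp1r1b, which encodes the dopamine signalling protein DARPP-32, belonged to a gene measured at 77.6, 73.1, 74.9 and 77.5 FPKM in replicates 1 to 4. The sequences are shown because they let the Ppp1r1b stem be compared with that of a known element, with capitals as above.
Alas2 5′ UTR, chrX:150547459-150547485, plus strand: tggttCgtcctCAGTGCagggcaacag
Ppp1r1b 5′ UTR, chr11:98348983-98349009, plus strand: gggtgCggggaCAGTGCtcctcctcct
These are letter matches with G-T pairs allowed, and binding was not measured.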
